A study of Mus musculus with 42 samples.

Results

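The 10 genes described here are used to mark and type macrophages in tumours: Adgre1, Mertk, Mrc1, Cd68, C1qa, C1qb, C1qc, Arg1, Nos2 and Cd163. They were taken from the gene table by symbol. Each symbol named 1 row, so 10 of 47729 genes were members, and all 10 were among the 16613 genes that passed the filter on low values. The tissue was whole tumours grown under the skin from Pan02, a transplantable mouse pancreatic tumour cell line, in C57BL/6 mice. BXCL701, also called talabostat, is an oral inhibitor of dipeptidyl peptidases, and it was given at 20 ug per mouse. BXCL701 mice of day 1 had a single dose and their tumours were taken 1, 8 or 16 h later; those of days 7 and 14 were dosed daily and gave tumours at 0, 1, 8 or 16 h. Vehicle (PBS) mice gave tumours at 0 h, on day 1, day 7 or day 14. Each of the 14 groups held 3 mice, 1 library per mouse, which gave 42 libraries. A replicate number is only a name here and pairs no mice. No vehicle tumours at 1, 8 or 16 h were analysed here, so at those hours treatment and harvest hour cannot be told apart.

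Macrophages take up dying cells, microbes and debris, and in tumours they are among the most abundant immune cells. Adgre1 encodes the F4/80 antigen, a surface marker of mouse macrophages, and Cd68 encodes a lysosomal glycoprotein of phagocytes. C1qa, C1qb and C1qc encode the chains of C1q, which starts the classical complement pathway and is made largely by tissue macrophages. Mertk encodes a receptor tyrosine kinase that binds apoptotic cells through the bridging proteins Gas6 and protein S. Mrc1 encodes the mannose receptor and Cd163 the receptor that clears haemoglobin bound to haptoglobin, and both are scavenger receptors of tissue-resident macrophages. Arg1 (arginase) and Nos2 (inducible nitric oxide synthase) compete for arginine and are classically used as markers of alternative and of inflammatory activation. Arg1 and Nos2 are also made by other myeloid cells and, under some conditions, by epithelial cells.

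The genes lie at these positions on GRCm38 in GENCODE release 21 of the mouse (M21). C1qa (chr4:136895917-136898803), C1qc (chr4:136889804-136893065) and C1qb (chr4:136880129-136886187) are neighbours on the reverse strand of chromosome 4. Adgre1 lies at chr17:57358691-57483527, Mertk at chr2:128698956-128802894, Mrc1 at chr2:14229392-14332057, Nos2 at chr11:78920787-78960254 and Cd163 at chr6:124304656-124330527, all on the forward strand. Cd68 (chr11:69664213-69666153) and Arg1 (chr10:24915221-24927484) lie on the reverse strand. RefSeq promoter sequences (GRCm38.p6) were matched for 6 of the 10 members, which were Mertk, Mrc1, Cd68, C1qb, C1qc and Cd163. The 250 bases before the transcription start are shown for C1qb and C1qc, whose RNA levels were nearly proportional across tumours, for Cd68, which varied with them, and for Mertk, which had the largest difference among the members called on day 14. They run 5′ to 3′ along the gene, and capitals mark matches, on either strand, to the core of the macrophage factor PU.1 (GAGGAA), to a core of the Maf element (TGCTGA) and to the AP-1 element (TGANTCA). The windows are chr4:136886201-136886450 for C1qb, chr4:136892915-136893164 for C1qc and chr11:69666171-69666420 for Cd68, all on the reverse strand, and chr2:128698665-128698914 for Mertk on the forward strand.
C1qb: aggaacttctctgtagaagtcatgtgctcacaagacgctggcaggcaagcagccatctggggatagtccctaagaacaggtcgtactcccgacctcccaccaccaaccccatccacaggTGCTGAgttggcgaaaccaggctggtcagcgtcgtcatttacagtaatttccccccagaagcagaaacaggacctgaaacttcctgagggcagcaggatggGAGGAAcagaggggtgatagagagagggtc
C1qc: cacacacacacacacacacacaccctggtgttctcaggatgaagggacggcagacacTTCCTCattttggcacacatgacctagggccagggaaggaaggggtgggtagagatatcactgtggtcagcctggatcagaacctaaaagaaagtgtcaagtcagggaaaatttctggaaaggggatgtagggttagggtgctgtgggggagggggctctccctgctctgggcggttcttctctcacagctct
Cd68: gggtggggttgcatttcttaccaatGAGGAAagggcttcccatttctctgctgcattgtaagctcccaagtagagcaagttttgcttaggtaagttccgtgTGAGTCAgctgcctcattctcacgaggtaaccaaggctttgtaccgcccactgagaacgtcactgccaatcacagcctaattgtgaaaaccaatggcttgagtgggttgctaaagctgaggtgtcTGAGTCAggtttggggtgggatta
Mertk: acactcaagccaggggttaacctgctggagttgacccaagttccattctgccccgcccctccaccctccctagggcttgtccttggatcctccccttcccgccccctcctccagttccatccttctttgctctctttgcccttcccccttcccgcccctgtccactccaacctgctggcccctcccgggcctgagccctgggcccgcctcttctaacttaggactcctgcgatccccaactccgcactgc
The PU.1 core was found in the windows of 4 of the 6 members, namely Mrc1, C1qb, C1qc and Cd68, against 23.3% of 32851 promoter windows of this length. By the RefSeq start, the C1qb window held it 30 bases before the start and the C1qc window 193 bases before the start. RefSeq and GENCODE starts differ, and part of the C1qc window lies inside the C1qc gene as positioned above. The Maf core was found in the C1qb window (16.1% of all windows) and the AP-1 element in the Cd68 window (6.7%). None of these motifs overlapped another, and the Mertk and Cd163 windows held none of the 3.

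Levels are compared between genes per kilobase of transcript (FPKM, which also scales for the reads of each library). Within a gene they are given as the deposited values, which were treated as estimated reads scaled by library. The C1q chains were the most abundant members, with medians over the 42 tumours of 777 FPKM for C1qa, 729 FPKM for C1qb and 488 FPKM for C1qc. Cd68 had a median of 108 FPKM, Adgre1 41.1 FPKM, Arg1 23.8 FPKM and Mrc1 18.0 FPKM. Mertk (3.01 FPKM), Cd163 (2.55 FPKM) and Nos2 (1.16 FPKM) were the scarcest. The order was firm at the top: C1qb exceeded C1qc, C1qc exceeded Cd68 and Cd68 exceeded Adgre1 in 42 of 42 tumours each. Arg1 exceeded Mrc1 in 26 tumours and Mertk exceeded Cd163 in 24, so these neighbours were not ordered beyond their spread. Over the 14 group means, neighbours in the order of levels lay within the larger SD of the pair for all 13 pairs of 8 members and for 12 of 13 pairs of Mertk and Cd163. Mertk was highest in BXCL701 tumours of day 1 at 8 h (9.05 ± 0.10 on the log2 scale, SD, n = 3) and lowest in vehicle tumours of day 14 (6.76 ± 0.77). Cd163 was highest in BXCL701 tumours of day 14 at 1 h (9.15 ± 0.45) and lowest in those of day 7 at 8 h (5.86 ± 0.88), which was also the group lowest in Mrc1 (9.85 ± 0.82). That group had the highest means of C1qa (14.35 ± 0.87), C1qb (14.28 ± 0.87), C1qc (13.85 ± 0.72), Cd68 (11.56 ± 0.63), Arg1 (10.18 ± 1.39) and Nos2 (7.60 ± 0.93). Adgre1 was highest in BXCL701 tumours of day 7 at 0 h (11.66 ± 0.18) and lowest in vehicle tumours of day 14 (10.70 ± 0.47). The spread itself differed between the members. Cd163 varied 45.0-fold between its lowest and its highest tumour, Arg1 21.4-fold and Nos2 16.4-fold, against 4.49-fold for C1qc and 2.95-fold for Adgre1.

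**Figure D1:**
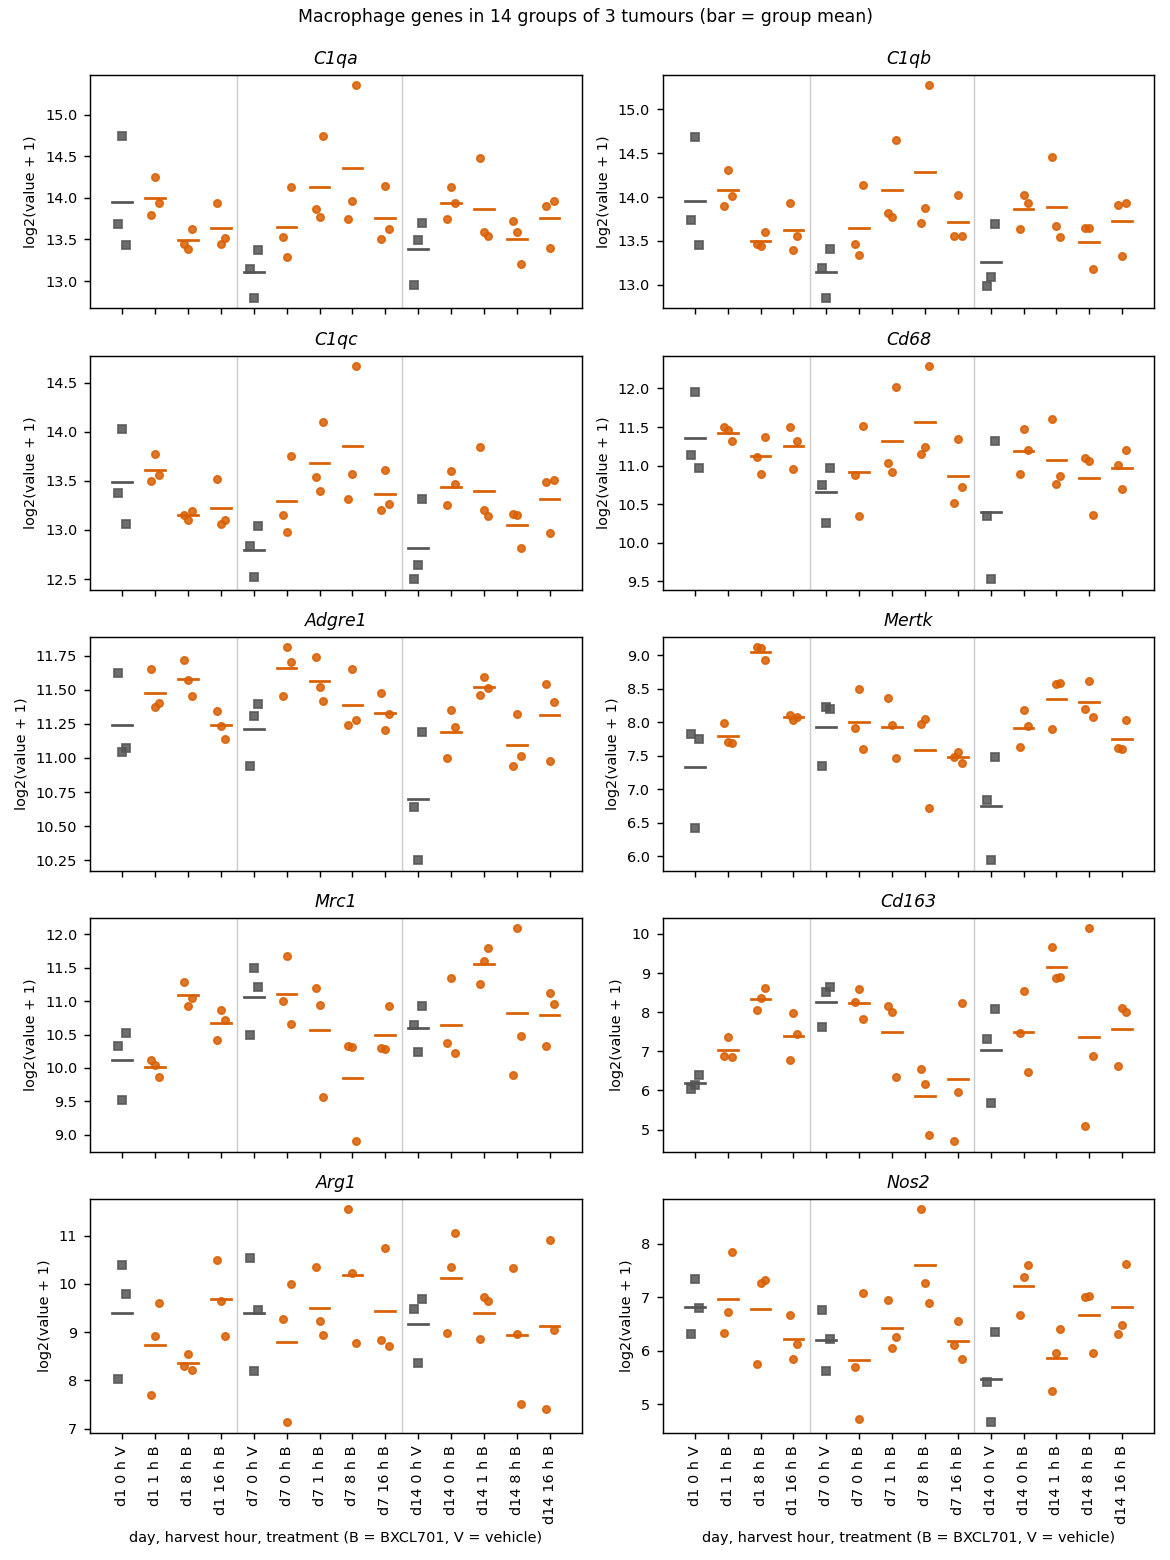
Level of each macrophage gene, as log2(value + 1) of the deposited value (vertical axes, each with its own range), in 14 groups of 3 tumours (horizontal axis, by day, with vehicle first and then BXCL701 by harvest hour); points are tumours and bars are group means. Vehicle tumours of day 14 held the lowest group means of Adgre1, Mertk, Cd68 and Nos2, and the 3 BXCL701 tumours of day 1 at 8 h held the highest Mertk.

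All members were detected in every library. The labelled tissue was checked with 7 genes picked after values were seen. The epithelial keratin genes Krt8, Krt18 and Krt19 had medians of 592, 447 and 41.6 FPKM, while Epcam, an epithelial adhesion gene, had a median of 0.996 FPKM and was as low as 0.0434 FPKM. Vim, a mesenchymal filament gene, had a median of 1869 FPKM. The leukocyte gene Ptprc had a median of 13.9 FPKM and the macrophage receptor gene Csf1r of 90.6 FPKM. Deposited values summed to between 19133148.9 and 26633377.9 per library, and the read depth behind them is unknown. The summed level of 12 skeletal muscle genes ranged from 65.6 to 300667 and that of 12 keratinocyte genes from 711 to 26797 between tumours. The slope of each gene's deviation on its log2 exon length, the transcript-length index of a library, ranged from -0.41 to 0.33. In whole tumours, fewer macrophages and less RNA per macrophage cannot be told apart.

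On day 14, BXCL701 tumours held more Mertk and more Adgre1 RNA than vehicle tumours, and no member was lower. The BXCL701 tumours were of 0, 1, 8 and 16 h together and the vehicle tumours of 0 h. At 0 h alone neither gene passed the adjusted threshold, as given below. Mertk values in the 12 BXCL701 tumours ranged from 192 to 390 with a median of 265, against 113, 60.7 and 178 in the 3 vehicle tumours. The groups did not overlap. Adgre1 values ranged from 1964 to 3088 in BXCL701 tumours with a median of 2590.25, against 1597, 1219 and 2340 in vehicle tumours. The highest vehicle tumour lay within the BXCL701 range for Adgre1. Fitted with limma over all genes, with a threshold of 0.05 on the p-value adjusted by Benjamini and Hochberg, Mertk rose by 1.32 ± 0.28 on the log2 scale (SE, adjusted p = 0.0111, 2.50-fold). Adgre1 rose by 0.58 ± 0.15 (SE, 95% interval 0.28 to 0.89, adjusted p = 0.0244). Thus 2 of 10 members were called higher, against 2.26% of the 16613 genes (376 genes), and 0 were called lower, against 1.03% (3.29% in either direction). Groups that did not overlap, with BXCL701 above vehicle, were found for 1 member and for 0.843% of genes. All 10 members had positive differences, with a median of 0.54, against a median of -0.01 over all genes, of which 48.4% were positive.

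Both calls rested on a few vehicle tumours. Vehicle replicate 2 held the lowest value of all 42 tumours for Mertk, Adgre1, Cd68 and Nos2; without it the difference of Mertk was 0.92 (adjusted p = 0.492) and that of Adgre1 0.36 (adjusted p = 0.699), and 1 gene of the whole table (0.00602%) was called. Without vehicle replicate 1, Mertk was called and Adgre1 was not (0.56, adjusted p = 0.107), with 1.31% of genes called. Vehicle replicate 3 had the highest keratinocyte level of the 42 tumours; without it Mertk, Adgre1, Cd68 (1.08, adjusted p = 0.0239) and Nos2 (1.60, adjusted p = 0.0358) were called, among 12.2% of all genes. Mertk values in vehicle tumours were 225, 84.4 and 215 on day 1 and 161, 299.97 and 291 on day 7, and both days overlapped with the vehicle tumours of day 14. Against the vehicle tumours of all 3 days, a comparison added after seeing the data, day 14 differences were 0.74 for Mertk (adjusted p = 0.064) and 0.23 for Adgre1 (adjusted p = 0.367), and 0 members were called, against 0.752% of genes. Fitted to the 15 tumours of day 14 alone, Mertk had an adjusted p of 0.0855 and Adgre1 of 0.184.

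**Figure D2:**
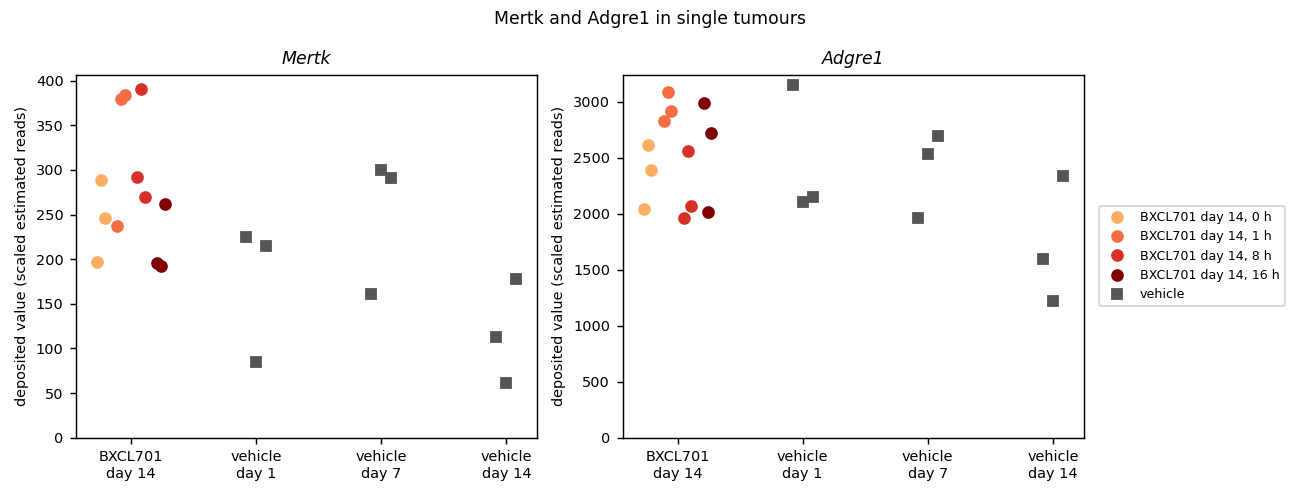
Deposited values of Mertk and Adgre1 (vertical axes, treated as scaled estimated reads) in single tumours. Shown are the 12 BXCL701 tumours of day 14, coloured by harvest hour, and vehicle tumours of days 1, 7 and 14 (3 each, squares). The 3 vehicle tumours of day 14 lie below every BXCL701 tumour for Mertk, between 60.7 and 178, while the vehicle tumours of day 7 reach 299.97.

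By harvest hour on day 14, Mertk was called at 1 h (1.60, adjusted p = 0.0275) and at 8 h (1.54, adjusted p = 0.0309), with limma and 3 tumours against the same 3 vehicle tumours. The differences at 0 h (1.16, adjusted p = 0.128) and 16 h (0.99, adjusted p = 0.249) were not past the threshold. Adgre1 was called at 1 h (0.83, adjusted p = 0.0286). It was not called at 0 h (0.50, adjusted p = 0.227), 8 h (0.40, adjusted p = 0.328) or 16 h (0.62, adjusted p = 0.150). At 1 h, 0.506% of all genes were called higher, and at 8 h 0.644%. Mertk values were 197, 289 and 246 at 0 h, 237, 380 and 384 at 1 h, 292, 390 and 269 at 8 h, and 195, 192 and 261 at 16 h. Every one of these tumours lay above the highest vehicle tumour of that day, and the hours overlapped one another. These 3 were the calls among the 11 harvest times. Genes called in either direction made up 0.783% of the table at 0 h, 0.789% at 1 h, 1.25% at 8 h and 0.0722% at 16 h of day 14. They were 0.301% at 8 h of day 7, 0.012% at 16 h of day 1 and 0% at the 5 other times.

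The C1q chains and Cd68 were higher on average in BXCL701 tumours of day 14, but none passed the test. C1qa values ranged from 9461 to 22778 in BXCL701 tumours with a median of 13646, against 7927, 11553 and 13249 in vehicle tumours. The groups overlapped for all 3 chains. The log2 differences were 0.39 for C1qa (adjusted p = 0.507), 0.49 for C1qb (adjusted p = 0.343) and 0.48 for C1qc (adjusted p = 0.243). Cd68 ranged from 1312 to 3099 in BXCL701 tumours, against 1300.4, 740 and 2564 in vehicle tumours, a difference of 0.62 (adjusted p = 0.267). The C1q chains have short transcripts (1040, 1088 and 1931 exonic bases), as does Cd68 (1257), and their levels moved with the transcript-length index, as described below. The index averaged 0.02 ± 0.11 (SD, n = 12) in BXCL701 tumours and -0.07 ± 0.09 (SD, n = 3) in vehicle tumours of day 14. With the index in the fit, 6 members were called higher on day 14, with 17.9% of genes called in either direction: Mertk, Adgre1, Cd68 (0.86, adjusted p = 0.00744), C1qa (0.67, adjusted p = 0.00122), C1qb (0.75, adjusted p = 0.00151) and C1qc (0.70, adjusted p = 0.00151).

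The scavenger receptor genes and the arginine genes did not pass the test on day 14. Mrc1 ranged from 954 to 4370.02 in BXCL701 tumours of day 14, against 1598, 1210.05 and 1940 in vehicle tumours (log2 difference 0.35, adjusted p = 0.678). Cd163 ranged from 33.0 to 1132, against 157, 50.5 and 269 in vehicle tumours (0.87, adjusted p = 0.544). Both genes were highest in the same tumour, BXCL701 at 8 h replicate 2. Nos2 ranged from 37.0 to 197 in BXCL701 tumours, against 41.8, 24.5 and 81.1 in vehicle tumours (1.16, 95% interval 0.26 to 2.06, adjusted p = 0.139). Arg1 ranged from 169 to 2136, against 710.1, 329 and 824 (0.22, 95% interval -1.17 to 1.62, adjusted p = 0.923). The interval for Arg1 spans a fall and a rise of over 2-fold, so its direction was not resolved at this number of mice.

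**Figure D3:**
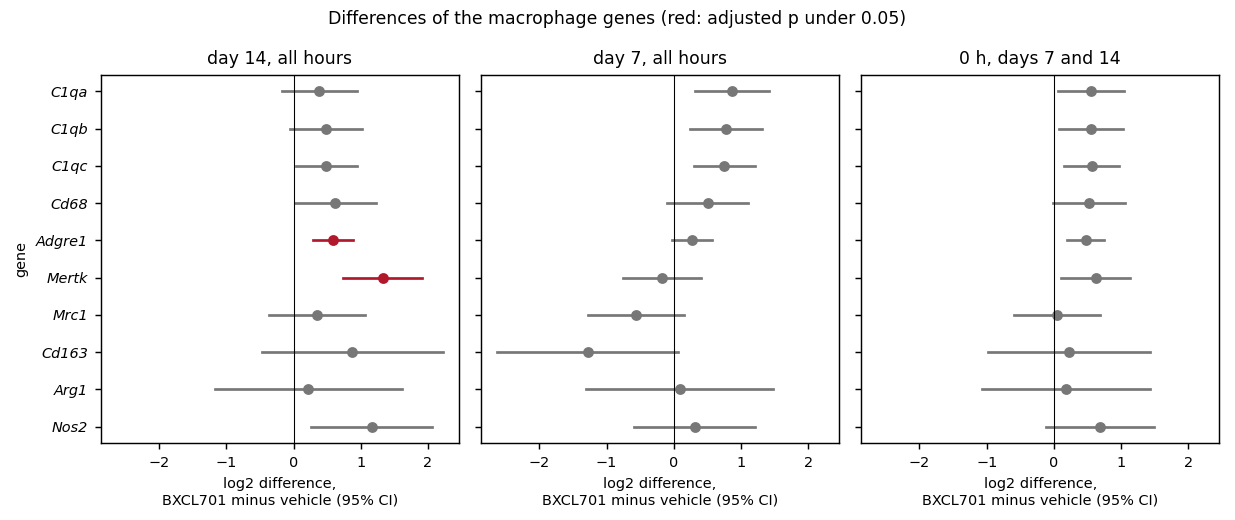
Log2 differences of the 10 macrophage genes, BXCL701 minus vehicle (horizontal axis, points with 95% confidence intervals from limma), on day 14 over all hours, on day 7 over all hours, and at 0 h over days 7 and 14. Mertk and Adgre1 on day 14 are the 2 values past the adjusted threshold (red).

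On day 7, the C1q chains had the largest positive differences and Cd163 the largest negative one, and no member passed the test. C1qa ranged from 9994 to 41853 in the 12 BXCL701 tumours with a median of 14466, against 9058, 7125 and 10578 in vehicle tumours. The log2 differences were 0.87 ± 0.27 for C1qa, 0.78 ± 0.26 for C1qb and 0.75 ± 0.22 for C1qc (SE), each with an adjusted p of 0.462 by limma. The transcript-length index averaged -0.02 ± 0.18 (SD, n = 12) in BXCL701 tumours and 0.15 ± 0.16 (SD, n = 3) in vehicle tumours of day 7. With the index in the fit, the day 7 differences were 0.38 for C1qa, 0.34 for C1qb and 0.39 for C1qc, each uncalled. Cd163 had a difference of -1.28 ± 0.66 (adjusted p = 0.493) and Mertk of -0.18 (adjusted p = 0.766). At an unadjusted p under 0.05 there were 3 members, against 9.87% of all genes, and 0.00602% of genes (1 gene) passed after adjustment. The other members overlapped widely between the groups of day 7. Adgre1 ranged from 2363 to 3596 in BXCL701 tumours, against 1960.3, 2531 and 2693 in vehicle tumours (0.27, adjusted p = 0.493). Mertk ranged from 105 to 358, against 161, 299.97 and 291. Nos2 ranged from 25.6 to 401, against 107, 48.0 and 73.9, and Arg1 from 139.7 to 2988, against 1479, 293 and 697. The highest Nos2 and the highest Arg1 of the 42 tumours were both in BXCL701 replicate 1 at 8 h. Against the vehicle tumours of all 3 days, Adgre1 was called (0.43, adjusted p = 0.0233), with 1.53% of genes called.

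For C1qa, C1qb, C1qc, Cd68, Mrc1, Cd163, Arg1 and Nos2 the day 7 difference farthest from 0 was that at 8 h; for Adgre1 it was that at 0 h (0.44) and for Mertk that at 16 h (-0.45). C1qa values were 13780, 15948 and 41853 in BXCL701 tumours at 8 h, against 9058, 7125 and 10578 in vehicle tumours. Cd163 values were 92.95, 70.9 and 28.2 in BXCL701 tumours at 8 h, against 195, 364 and 396 in vehicle tumours. Mrc1 values were 1290.1, 1268 and 479 at 8 h, against 1445, 2880.2 and 2379 in vehicle tumours. The groups did not overlap for these 3 genes. Log2 differences with unadjusted p under 0.05 were found for 7 members, and none passed the adjusted threshold: C1qa 1.25 (adjusted p = 0.0700), C1qb 1.13 (0.0749), C1qc 1.05 (0.0668), Cd68 0.90 (0.113), Nos2 1.40 (0.103), Mrc1 -1.22 (0.0889) and Cd163 -2.39 (0.0823). Of all genes 30.9% had an unadjusted p under 0.05 at this time, and groups that did not overlap were as common as 15.2% upwards and 13.1% downwards, against 5 and 2 of the 10 members. Whether any member passed depended on the tumours and covariates in the fit. Without BXCL701 replicate 1 at 8 h, C1qa, C1qb, C1qc, Mrc1 and Cd163 were called, as were 2381 genes (14.3%). BXCL701 replicate 3 at 8 h held the highest C1qa, C1qb, C1qc and Cd68 and the lowest Mrc1 of the 42 tumours, and also the lowest transcript-length index, -0.41. With the skeletal muscle list as a covariate the 3 C1q chains were called at 8 h (1.31, 1.20 and 1.11, adjusted p = 0.0426, 0.0474 and 0.0391), with 2.06% of genes called. With the length index in the fit none was, C1qa having 0.36 (adjusted p = 0.603).

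On day 1, a single dose gave no call for any member, and over the 3 hours together limma called 0 genes of the whole table (437 genes, 2.63%, had an unadjusted p under 0.05). Mertk was high in each of the 3 BXCL701 tumours at 8 h, with values of 555, 551 and 488, against 225, 84.4 and 215 in vehicle tumours. These 3 tumours held the 3 highest Mertk values of the study. The log2 difference at 8 h was 1.72 (unadjusted p = 3.92e-05, adjusted p = 0.160). Cd163 values were 263, 328 and 392 at 8 h, against 64.1, 69.2 and 83.6 in vehicle tumours, a difference of 2.16 (adjusted p = 0.278). The transcript-length index averaged 0.12 ± 0.03 in BXCL701 tumours of day 1 at 8 h and -0.12 ± 0.22 in vehicle tumours of day 1 (SD, n = 3 each). Over the 3 hours Cd163 did not overlap with vehicle (108 to 392 in 9 BXCL701 tumours), which held for 0.181% of genes in this direction. Its difference of 1.40 ± 0.68 had an adjusted p of 0.906. At 8 h of day 1 groups that did not overlap were common, with 12.6% of genes higher and 17.3% lower, against 3 and 0 members.

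At 0 h, where vehicle tumours of the same hour exist, BXCL701 and vehicle tumours were compared over days 7 and 14. All 10 members had positive differences, with a median of 0.54 against -0.02 over all genes, and none passed the test, against 0.476% of genes called higher and 0.512% in either direction. At an unadjusted p under 0.05 there were 5 members, against 10.8% of genes. Adgre1 values in BXCL701 tumours were 2804, 3596 and 3332 on day 7 and 2046, 2617 and 2392 on day 14, against 1960.3, 2531 and 2693 and 1597, 1219 and 2340 in vehicle tumours of those days. The difference of Adgre1 was 0.47 ± 0.13 (SE, adjusted p = 0.0897 by limma). The difference was 0.56 for C1qc (adjusted p = 0.2105), 0.62 for Mertk (adjusted p = 0.331) and 0.22 for Cd163 (adjusted p = 0.950). With the length index in the fit Adgre1 (0.47, adjusted p = 0.0315), C1qa (0.58, adjusted p = 0.00368), C1qb (0.58, adjusted p = 0.0112) and C1qc (0.58, adjusted p = 0.0063) were called, with 3.69% of genes called. Without vehicle replicate 3 of day 14, Adgre1 (adjusted p = 0.00617) and C1qc (adjusted p = 0.0467) were called, among 4.86% of genes.

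The vehicle tumours themselves differed between days by amounts like those between treatments. For day 14 minus day 7, the difference was -1.17 for Mertk (adjusted p = 0.143) and -0.52 for Adgre1 (adjusted p = 0.179). For day 7 minus day 1, Cd163 differed by 2.07 and C1qa by -0.85 (adjusted p = 0.263 each). No member was called in the 3 comparisons of vehicle days, in which 0.0602% of genes (day 14 minus day 1) or 0% were called. Neither was any called between BXCL701 tumours at 1, 8 or 16 h and those at 0 h, where 0.012%, 0.132% and 0.00602% of genes were called. The test of whether the day 14 effect differed from the day 7 effect gave 1.5004 for Mertk (adjusted p = 0.178) and 2.15 for Cd163 (adjusted p = 0.270) over all hours, and 0 genes of the table passed (2592 had an unadjusted p under 0.05). The Mertk effect was therefore not shown to differ between days.

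Several members varied together across the 42 tumours. The correlations below are descriptions over tumours that share groups, mice of 1 study and the library measures given with them. The C1q chains were nearly proportional (Pearson r of 0.98 for C1qa with C1qb, 0.97 for C1qa with C1qc and 0.99 for C1qb with C1qc), and r stayed between 0.96 and 0.98 without the 2 tumours farthest from the median. On the FPKM scale C1qa exceeded C1qb by 0.10 ± 0.09 log2 units (SD, n = 42) and C1qb exceeded C1qc by 0.60 ± 0.09. C1qa exceeded C1qc by 0.70 ± 0.13. The widest gaps of C1qa to C1qb (0.499) and to C1qc (1.131) were both in vehicle replicate 2 of day 14. Cd68 followed the C1q chains (r between 0.82 and 0.88). Mrc1 and Cd163 varied together (r = 0.87, rho = 0.91). Mertk varied with Adgre1 (r = 0.64, rho = 0.46), with Mrc1 (r = 0.62, rho = 0.62) and with Cd163 (r = 0.55, rho = 0.57). Without the 2 farthest tumours these values of r were 0.44 for Adgre1, 0.61 for Mrc1 and 0.50 for Cd163. Mrc1 and C1qa varied in opposite directions (r = -0.58, rho = -0.46). Arg1 and Nos2, the classical opposites, varied in the same direction (r = 0.55, rho = 0.51). Their r was 0.72 after the group means were removed and 0.41 without the 2 tumours farthest from the Arg1 median.

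The transcript-length index moved with several members. Its r was -0.83 with C1qa, -0.78 with C1qb, -0.73 with C1qc and -0.63 with Cd68, and 0.75 with Mrc1, 0.65 with Mertk, 0.49 with Cd163 and 0.29 with Adgre1. Mrc1 (6371 exonic bases), Cd163 (5461) and Mertk (4336) have longer transcripts than the C1q chains and Cd68. After the index was removed, the r of Mrc1 with C1qa was 0.11 and no longer negative, while that of Adgre1 with C1qc was 0.89, against 0.37 as measured. Mrc1 with Cd163 kept an r of 0.86. With the index removed, the r of Mertk was 0.61 with Adgre1, 0.27 with Mrc1 and 0.35 with Cd163. The r of Mertk with Cd68 was then 0.72, against 0.01 as measured. With the C1q chains it was 0.49 to 0.55, against -0.33 to -0.19 as measured. Cd163 also moved with the mean of the skeletal muscle genes (r = 0.51), of the adipocyte list (r = 0.53) and of the lymphatic endothelial list (r = 0.50), and the part of those tissues in the Cd163 levels was not tested. The tumours with the highest Cd163, 1132 and 810, were BXCL701 day 14 tumours at 8 h and 1 h with mean muscle levels of 12.5 and 13.97 on the log2 scale. The C1q chains and Cd68 moved with the T cell list (r between 0.68 and 0.77). The other members had r of 0.54 (Nos2), 0.42 (Adgre1), 0.31 (Arg1), -0.03 (Mertk), -0.33 (Cd163) and -0.46 (Mrc1) with it. The index was not removed from these values, and its part in them was not tested.

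**Figure D4:**
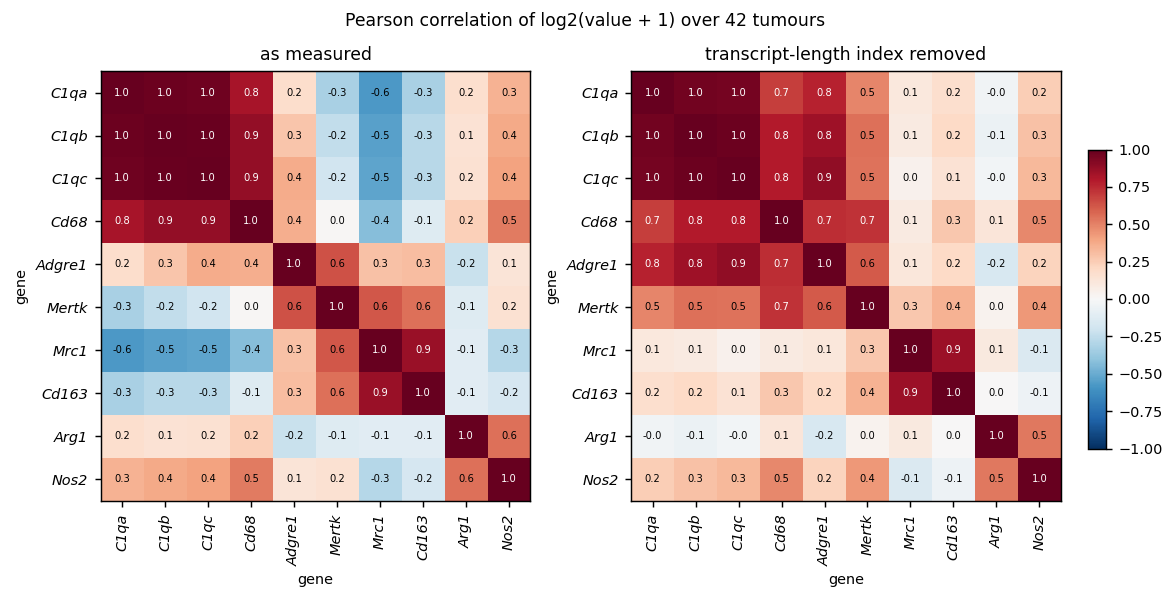
Pearson correlation of log2(value + 1) between the macrophage genes over 42 tumours, as measured (left) and after the transcript-length index of each library was removed by regression (right). The C1q chains and Cd68 form 1 block and Mrc1 and Cd163 another in both panels. Adgre1 joins the first block on the right, with r of 0.77, 0.85 and 0.89 with C1qa, C1qb and C1qc. As measured these were 0.17, 0.28 and 0.37. Mertk also rises there, to 0.72 with Cd68 from 0.01. Values between the blocks that are negative as measured (Mrc1 with C1qa, -0.58, and Cd68 with Cd163, -0.13) are not negative on the right (0.11 and 0.27).

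**Figure D5:**
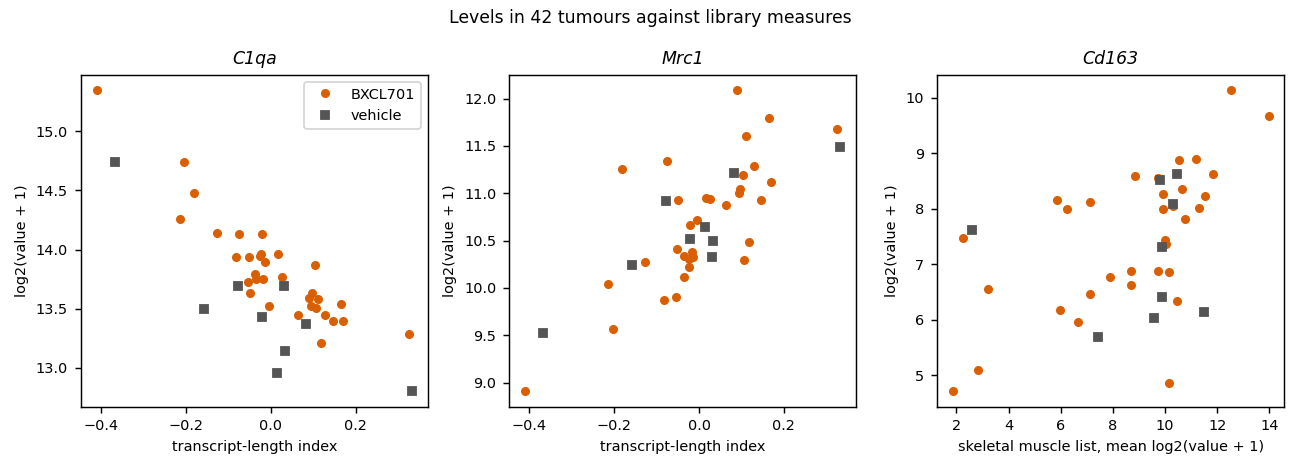
Levels in single tumours (vertical axes, log2(value + 1)) of C1qa and Mrc1 against the transcript-length index and of Cd163 against the mean of the skeletal muscle list (horizontal axes); circles are BXCL701 tumours and squares vehicle tumours. C1qa is lower and Mrc1 higher in libraries of higher index (r = -0.83 and 0.75), and Cd163 is higher in tumours with more muscle RNA (r = 0.51).

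For each member the most similar genes were taken by Pearson r over the 42 tumours among 16613 genes. Adgre1 was most like C3ar1, the receptor for the complement fragment C3a (r = 0.88), and Tlr9, a receptor for microbial DNA (r = 0.87). Mrc1 was most like F13a1, a coagulation factor chain made by macrophages (r = 0.91), and Wwp1 (r = 0.90). Cd68 was most like Crlf2 and Laptm5 (r = 0.94 each), Cd163 like Itih5 (r = 0.91) and Cd55, an inhibitor of complement (r = 0.90), and Mertk like Adap2 (r = 0.86) and Epb41 (r = 0.85). Arg1 and Nos2 had weaker neighbours, Srgn (r = 0.73) and Cish (r = 0.70) for Arg1, and Tnfrsf9 (r = 0.79) and Adam8 (r = 0.72) for Nos2. Each C1q chain was most like the other two.

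Other macrophage genes and the pathways of the members were followed on day 14 with the same fit. Of 22 further macrophage genes 2 rose and 0 fell, with 21 positive and a median of 0.55. These were Lyz2 (lysozyme, 1.17, adjusted p = 0.00653) and Slc11a1 (a metal transporter of phagosomes, 1.04, adjusted p = 0.0209), and Siglec1 had 1.21 (adjusted p = 0.0636). Of 8 monocyte genes 1 rose and 0 fell, with 5 positive and a median of 0.58. Ly6c2 had 1.44 (adjusted p = 0.081) and Treml4 0.74 (adjusted p = 0.0937), neither of them called. Of 12 alternative activation genes none passed, with 10 positive and a median of 0.62. The smallest p belonged to Ccl22 (1.15, adjusted p = 0.164), Chil3 (1.52, adjusted p = 0.189) and Il4ra (0.36, adjusted p = 0.432). Of the 11 inflammatory activation genes tested 4 rose and 0 fell, with 10 positive and a median of 0.53. Among the 4 were Cd86, a costimulatory ligand (1.01, adjusted p = 0.0101), and Cxcl9, a chemokine for T cells (1.91, adjusted p = 0.0238).

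Of 9 genes listed for the uptake of apoptotic cells, which include relatives of Mertk, 1 rose. It was Stab1, a receptor for apoptotic cells that is not of the Mertk family (0.59, adjusted p = 0.0411). Timd4 had 0.99 (adjusted p = 0.203), and Tyro3, a receptor kinase gene related to Mertk, had -0.15 (adjusted p = 0.601). Of 12 complement genes other than C1q, 5 rose and 0 fell, with a median of 0.95. They included the C1q-associated protease genes C1ra (1.03, adjusted p = 0.00839) and C1s1 (1.07, adjusted p = 0.0175), and Cfb of the alternative pathway (1.88, adjusted p = 0.0162). Of 10 arginine metabolism genes 1 rose, Arg2, the mitochondrial arginase (1.32, adjusted p = 0.0469), beside Odc1 (-0.29, adjusted p = 0.167) and Slc7a2 (1.14, adjusted p = 0.204). Of 8 genes of haemoglobin and iron handling none passed, Cd5l having 1.76 (adjusted p = 0.203), Lrp1 0.23 (adjusted p = 0.419) and Hmox1 0.23 (adjusted p = 0.681). On day 7 none of the genes of these 8 lists passed, the smallest adjusted p being 0.386 for Lyz2 (0.84) and Plac8 (0.84). At 0 h over both days 4 passed, Lyz2 (1.00, adjusted p = 0.0226), Slc11a1 (0.94, adjusted p = 0.04998), Cd86 (0.82, adjusted p = 0.0435) and C1ra (0.87, adjusted p = 0.0392). Counted against 2.26% of all genes higher on day 14, these shares are over small lists that were chosen with earlier results known. Without vehicle replicate 2 of day 14, 1 gene of the whole table was called in the day 14 comparison and 6 genes (0.0361%) in that at 0 h over both days.

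Marker genes of other cell types were followed on day 14 against the same 2.26% of all genes called higher, a share that was 0.00602% in either direction without vehicle replicate 2. Of 13 neutrophil genes 7 rose, with a median of 1.44, and the summed neutrophil level was 2963 to 9816 in BXCL701 tumours, against 2562 to 4091 in vehicle tumours. Of 10 T cell genes 2 rose, with a median of 0.91, and their summed level was 684 to 1929 against 378 to 1372. The keratinocyte genes had a median of -1.44 with 0 of 12 called, and their summed level was 722 to 13537 in BXCL701 tumours, against 1292 to 26797 in vehicle tumours. The part of these cell types in the Mertk and Adgre1 differences was not tested, except that with the keratinocyte level in the fit the difference was 1.39 for Mertk (adjusted p = 0.00775) and 0.62 for Adgre1 (adjusted p = 0.0153).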

How the data were processed

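RNA was measured in 42 subcutaneous Pan02 tumours. Trimmomatic (0.36), Bowtie (0.12.9) and the build GRCm38 are named per the submitters' processing notes; how reads became values, and their scaling, is not given in the sources used here. In the authors' deposited file named for counts 0.0812% of the values above 0 were whole, so it was treated as a signal (estimated reads scaled by library) of unknown read depth. A table of log2 FPKM deposited by the authors served for levels between genes and as an alternative, and another table repeated its values (largest difference 0) and was not used. Per the labels, each library came from its own animal.

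The 16613 of 47729 genes that reached 10 in 3 or more libraries were transformed as log2(value + 1) and fitted with 1 coefficient per group over all 42 libraries (28 residual degrees of freedom) in limma 3.58.1 under R 4.3.3, reading with data.table (version 1.17.8), with intensity trend and robust settings. Fold changes are on that scale and understate changes of low genes. In each of 23 comparisons p-values were adjusted by Benjamini-Hochberg over all kept genes, with a threshold of 0.05, and the hours of a day had equal weight. The transcript-length index used 11487 genes with a mean of at least 100; 99.6% of tested genes had a length in GENCODE M21. The procedure was tested on simulated data with known changes and independent values per gene. That simulation held no effect shared by the genes of a library, so it could not show how single libraries move the calls.

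The members and the 23 gene lists were chosen with earlier results of these data known. The text names every member, the 2 genes most correlated with each (predicted models left out), and up to 3 genes of smallest p in each macrophage-related list. A few genes that this rule picks are not reported here. Alternatives were median-of-ratios factors, no filter, log2 FPKM, a pseudocount of 5, 3 covariates, no trend, the libraries of a comparison alone and leaving out each library. The vehicle tumours of all 3 days as reference, and leaving out the 4 libraries of extreme length index, were added after seeing the data.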

Additional observations from a re-analysis of the deposited data

How the results depend on the processing

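The day 14 calls of Mertk and Adgre1 were unchanged with median-of-ratios factors, no filter, log2 FPKM or a pseudocount of 5. The keratinocyte or muscle covariate and no trend left them unchanged too, as did leaving out the 4 libraries of extreme length index. Those 4 libraries came from days 1 and 7, so leaving them out could not move the day 14 differences, only their standard errors. The number of members called on day 14 was 6 with the transcript-length index as covariate, 0 with the libraries of the comparison alone, 0 against vehicle of all 3 days, and 0 to 4 when single libraries were left out. At 0 h it was 4 with the index and 0 to 2 over left-out libraries. On day 7 it was 1 against vehicle of all 3 days. Over the 11 harvest times the 3 calls became 18 with the index, 6 with the muscle covariate, 0 with the libraries of the comparison alone, and 0 to 10 over left-out libraries. Without single libraries, the vehicle day comparisons gave 0 to 4 calls and the tests between days 0 to 1. The cause was not tested. Whole-table calls on day 14 were 547, and 2968 with the index, 1018 without the 4 extreme libraries, 125 against vehicle of all 3 days, 1 with the libraries of the comparison alone or without vehicle replicate 2, 2021 without replicate 3 and 217 without replicate 1. The read depth, which limits the low genes Nos2, Cd163 and Mertk most, is unknown. No paired analysis was possible because replicates were numbered by accession order and the labels link no mice across groups.

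All changes of direction were of uncalled differences. With log2 FPKM, Nos2 on day 1 was 0.09 and Mrc1 at 0 h -0.069. With the index, day 7 gave 0.23 for Mertk and -0.082 for Arg1, and day 1 gave 0.23 for Cd68 and 0.11 for each of C1qa, C1qb and C1qc. Against vehicle of all 3 days, Mertk on day 7 was 0.41, and day 1 gave -0.011 for Mrc1, 0.47 for Cd68, 0.23 for C1qa, 0.28 for C1qb, 0.30 for C1qc and 0.49 for Nos2. Without the 4 extreme libraries, day 7 gave 0.024 for Mertk and -0.13 for Arg1, and day 1 gave 0.21 for Cd68, 0.14 for C1qa, 0.14 for C1qb, 0.11 for C1qc, 0.022 for Arg1 and 0.11 for Nos2. When single libraries were left out, the day 1 differences ranged from -0.28 to 0.21 for Cd68, -0.51 to 0.14 for C1qa, -0.48 to 0.14 for C1qb, -0.37 to 0.11 for C1qc, -1.17 to 0.022 for Arg1 and -0.41 to 0.11 for Nos2. Arg1 ranged from -0.51 to 0.66 on day 7 and from -0.18 to 0.48 on day 14, and at 0 h the ranges were -0.13 to 0.16 for Mrc1, -0.12 to 0.60 for Arg1 and -0.11 to 0.49 for Cd163.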
